A study of Mus musculus with 12 samples.

Results

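Dlk1-Sca1+ cells and Dlk1+Sca1- cells are 2 of the 4 fibroblast populations that were sorted from neonatal mouse back skin and profiled on Affymetrix Mouse Gene 2.0 ST arrays. The study calls the first pre-adipocytes and the second reticular fibroblasts, the cells of the deep, collagen-rich dermis. Of the 12 arrays, 5 were compared here: Dlk1-Sca1+ replicates 1 and 2 and Dlk1+Sca1- replicates 1 to 3. Dlk1-Sca1+ replicate 3 is shown apart. It held the most Dlk1 of its population and so resembles a sample that the study set aside for high Dlk1, without giving its number. All 22180 genes with a probe set of a single gene symbol were compared, and the genes with the largest differences and the members of 41 gene lists are described.

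All mice were at postnatal day 2, the labels give the genotype as wild type, and no agent was given. The paper describes PdgfraH2BeGFP reporter mice, in which nuclear green fluorescent protein marks cells that express Pdgfra, so that each population would be a gated part of the fluorescent fibroblasts. The other populations are Dlk1+Sca1+ cells, also called pre-adipocytes, and CD26+ cells, the papillary fibroblasts next to the epidermis, with 3 arrays each. Arrays of a population are labelled as biological replicates and are said to come from separate mice. The p-values rest on the spread between arrays of the same population. For each gene, all populations share an estimate of this spread, which also borrows from other genes. It is therefore not the spread of the 2 compared populations alone. In RNA of a sorted pool, fewer cells of a type and less RNA per cell cannot be told apart.

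Dlk1 encodes a membrane protein that holds back adipocyte differentiation and is lost as precursors mature, and Sca1, encoded by Ly6a, marks adipocyte precursors in mouse skin. Committed precursors switch on the nuclear receptor gene Pparg and then genes of fatty acid uptake and of the lipid droplet. Reticular fibroblasts lay down the bulk of the dermal matrix and lie around the growing hair follicles, whose papillae are made of specialised fibroblasts. The comparison shows how cells sorted as pre-adipocytes differ from the reticular cells beside them.

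Dlk1 was read as a check of the labels and is given without a test, since the cells were sorted on its protein. Dlk1 (chromosome 12, 109452485 to 109463336) was at 8.09 and 8.32 in Dlk1-Sca1+ replicates 1 and 2 and at 9.78, 10.11 and 9.90 in Dlk1+Sca1-, as log2 levels. The populations did not overlap, and replicate 3 of Dlk1-Sca1+, at 8.69, was the highest of its own population and below every Dlk1+Sca1- array. Pdgfra, whose reporter marks the fibroblasts of every population and was not used to separate them, was at 9.39 and 9.50 against 8.64, 8.77 and 8.68, with 8.79 on replicate 3. Its RNA did not overlap between the populations and was called higher, as given below. Plin1, a lipid droplet gene of the adipocyte lineage, was higher on both Dlk1-Sca1+ arrays than on any Dlk1+Sca1- array, with values below. Ly6a was not analysed here because no probe set carried it alone, so the Sca1 gate was not checked.

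Limma called 131 of the 22180 genes (0.591%) at an adjusted p under 0.05, of which 76 were higher (0.343%) and 55 lower (0.248%) in Dlk1-Sca1+, the gate gene Dlk1 among the lower ones. Differences are log2 Dlk1-Sca1+ minus Dlk1+Sca1- with the standard error of the fit (n = 2 and 3 arrays). In size they ran from 0.50 to 3.84 among called genes, with a median of 1.27, and 98 were at least 1. No called gene overlapped between the populations, which also held for 28.1% of all genes tested. The median difference over all genes was -0.01. At an unadjusted p under 0.05 there were 2740 genes. The split between higher and lower calls depended on how the values were scaled and fitted. After quantile normalisation 39 were higher and 61 lower, after centring each array on its median 101 and 50, and with all 12 arrays 50 and 50. With the replicate number as a block it was 61 and 75, and the calls of Cd36, H2ac15, Pdgfra, Ppp1r9a, Efna5 and Unc5b ended. Leaving out an array gave 41 calls for Dlk1-Sca1+ replicate 1, 20 for its replicate 2 and 51 for Dlk1+Sca1- replicate 1. A fit of only the 5 arrays compared called 26 genes and kept 14 of the 58 calls described gene by gene: Akr1c18, Angptl1, Cd24a, Cd36, Cilp, Igfbp3, Itih5, Lrig1, Plin1, Ptn, Rarres1, Shcbp1, Thy1 and Trarg1.

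**Figure D1:**
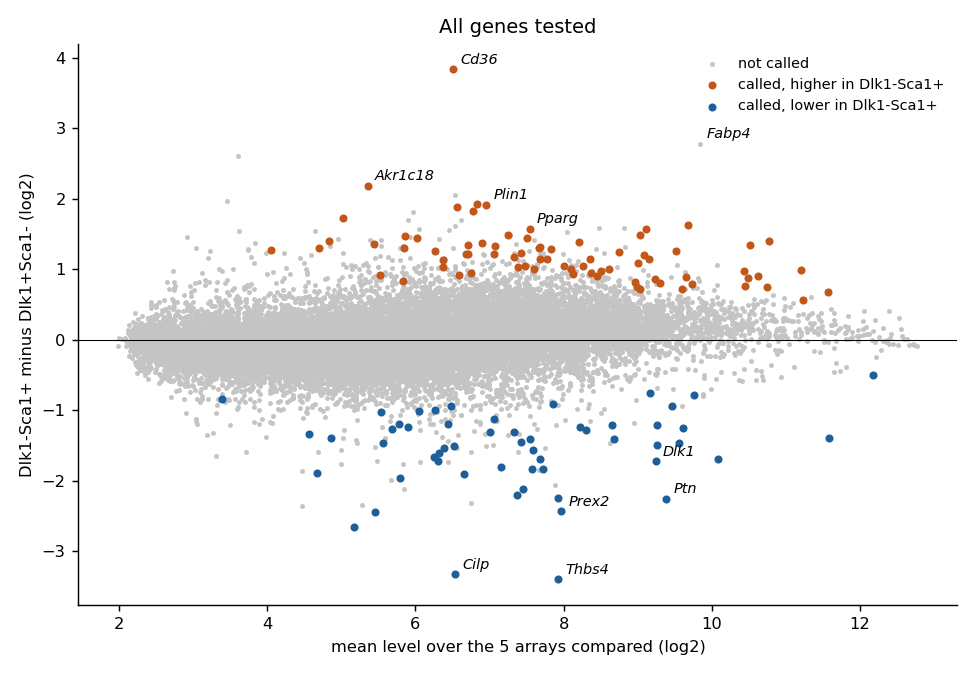
Difference between Dlk1-Sca1+ (replicates 1 and 2) and Dlk1+Sca1- (y axis, log2) against the mean level over the 5 arrays compared (x axis, log2), 1 point per gene. Called genes are coloured, 76 higher and 55 lower, and Cd36 stands above and Thbs4 and Cilp below all others, while Fabp4 is far from 0 but not called.

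The largest rise was in a gene of fat cells. Cd36 (chromosome 5, 17781690 to 17888959), whose product carries fatty acids into cells, had the largest difference of all called genes. It was at 8.78 and 8.85 in Dlk1-Sca1+ and at 4.01, 5.34 and 5.58 in Dlk1+Sca1-. Both Dlk1-Sca1+ arrays lay far above the 3 others, and replicate 3 was higher still at 10.18. Cd36 rose by 3.84 ± 0.65 (adjusted p = 0.0356), 14.3-fold, but was not called with the replicate number as a block. The call was lost without Dlk1-Sca1+ replicate 1 (adjusted p = 0.162) or 2 (0.217) or without Dlk1+Sca1- replicate 1 (0.077) or 2 (0.0622).

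Plin1 (chromosome 7, 79721164 to 79732904), whose product perilipin coats lipid droplets and guards them from lipolysis, was at 8.26 and 7.95 in Dlk1-Sca1+ and at 5.90, 6.09 and 6.57 in Dlk1+Sca1-. The populations were apart by more than the spread within either, and replicate 3 was the highest of all 12 arrays at 9.25. Plin1 rose by 1.92 ± 0.31 (adjusted p = 0.0175), 3.77-fold, and was not called without Dlk1-Sca1+ replicate 1 (adjusted p = 0.144) or 2 (0.0981) or without Dlk1+Sca1- replicate 1 (0.0665). Trarg1 (chromosome 11, 76679873 to 76698664), which regulates the traffic of the insulin-responsive glucose transporter in adipocytes, was at 8.22 and 8.08 against 6.78, 6.59 and 6.60. The Dlk1+Sca1- arrays were close together and well below, and replicate 3 was again highest at 8.77. Trarg1 rose by 1.49 ± 0.21 (adjusted p = 0.00678) and was not called without Dlk1-Sca1+ replicate 1 (adjusted p = 0.0799) or 2 (0.0585).

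Pparg (chromosome 6, 115360879 to 115490404), the nuclear receptor that drives adipogenesis, was at 8.20 and 8.77 in Dlk1-Sca1+ and at 6.69, 6.72 and 7.32 in Dlk1+Sca1-, and at 9.05 on replicate 3. All 3 Dlk1-Sca1+ arrays lay above every reticular array. The rise was 1.58 ± 0.30 (adjusted p = 0.0365), and it was not called without Dlk1-Sca1+ replicate 1 (adjusted p = 0.094) or 2 (0.318), without Dlk1+Sca1- replicate 1 (0.122) or 2 (0.0825) or after quantile normalisation (0.0503). Akr1c18 (chromosome 13, 4132615 to 4150646) encodes a hydroxysteroid dehydrogenase that inactivates progesterone. Its levels were 6.77 and 6.57 against 4.67, 4.46 and 4.32, with 7.83 on replicate 3, and the populations were far apart. Akr1c18 rose by 2.18 ± 0.25 (adjusted p = 0.00244), 4.54-fold, and was called in each of the 5 fits that left out an array.

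**Figure D2:**
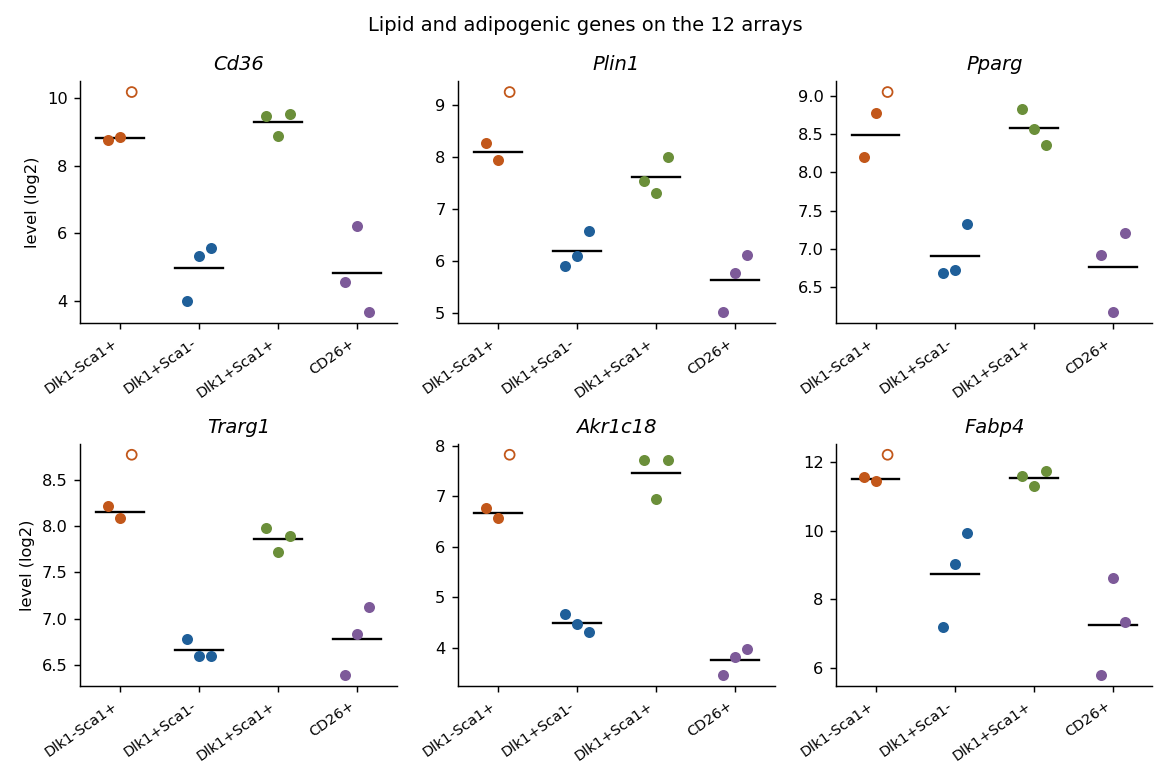
Log2 level (y axis) of 6 lipid and adipogenic genes on the 12 arrays by population (x axis), 1 point per array, with the population mean as a bar. The open circle is Dlk1-Sca1+ replicate 3, which is not in its mean and is the highest of all 12 arrays in each panel, such as 10.18 for Cd36.

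Fabp4, whose product shuttles fatty acids inside adipocytes, was not called in spite of a difference of 2.78 ± 0.89 (adjusted p = 0.252). It was at 11.56 and 11.45 in Dlk1-Sca1+ and at 7.20, 9.03 and 9.94 in Dlk1+Sca1-, with 12.22 on replicate 3. Each Dlk1-Sca1+ array was above each reticular array, but the reticular arrays were spread widely. Lpl, the lipase that frees fatty acids from circulating triglyceride, differed by 1.06 ± 0.35 (adjusted p = 0.242), and Cidec, a lipid droplet protein of mature adipocytes, by 0.88 ± 0.28 (adjusted p = 0.208). The hormone gene Adipoq was at 6.24 and 6.20 against 5.56, 5.54 and 5.75 and was not called (0.60 ± 0.17, adjusted p = 0.146), while replicate 3 was at 7.86. Lep, Retn and Slc2a4, genes of mature fat, differed by -0.01 ± 0.31, 0.03 ± 0.16 and 0.44 ± 0.29 and were not called (adjusted p = 0.996, 0.96 and 0.582). Cebpa, which acts beside Pparg in late adipogenesis, differed by 0.26 ± 0.27 (adjusted p = 0.753), and Zfp423, a determinant of precursor commitment, by -0.66 ± 0.21 (adjusted p = 0.211).

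The lipid lists held 1 or 2 calls each, where limma called 0.343% of all genes higher. Members were chosen with earlier results of these data known, so these counts are descriptions. Of 25 lipid droplet and lipolysis genes, 2 rose, Plin1 and Cav1, and 17 lay above 0 (median 0.18, and 0.48 on replicate 3). Cav1, which forms caveolae, rose by 0.90 ± 0.14 (adjusted p = 0.0126). Of 25 genes of fatty acid uptake, binding and synthesis, 1 rose, Cd36, and 19 lay above 0 (median 0.20). Of 34 adipogenic transcription factors and coregulators, 1 rose, Pparg, and the median was -0.08. Of 18 adipocyte hormones and late metabolic genes, 1 rose, Itih5, a gene for a hyaluronan-binding protein that adipocytes express (median 0.07). Itih5 rose by 1.34 ± 0.17 (adjusted p = 0.00405). Calls ended for Cav1 (adjusted p = 0.0957) on leaving out Dlk1-Sca1+ replicate 1 and for Cav1 (0.115) and Itih5 (0.0527) on leaving out Dlk1-Sca1+ replicate 2. Pparg, Cd36 and Fabp4 are also among 15 measured genes that the study names for mouse, some from these arrays and some from quantitative PCR or its probe list. Of these, 4 rose and 1 fell. Where the study read a gene from these arrays, its direction here is no independent evidence.

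Of the genes that rose, Cd36, Plin1, Trarg1 and Akr1c18 did not pass the test against the other Sca1+ population. Pparg, Cav1 and Itih5 are not compared with it here. Cd36 was at 9.47, 8.89 and 9.54 in Dlk1+Sca1+ and at 4.57, 6.23 and 3.66 in CD26+, so that Dlk1-Sca1+ differed from Dlk1+Sca1+ by -0.49 ± 0.65 (adjusted p = 0.872) and from CD26+ by 3.99 ± 0.65 (adjusted p = 0.0864). Plin1 was at 7.54, 7.30 and 7.99 and at 5.02, 5.77 and 6.12, and the differences were 0.49 ± 0.31 (adjusted p = 0.636) and 2.47 ± 0.31 (adjusted p = 0.00974). These comparisons use the same Dlk1-Sca1+ arrays as the main one and called 1.19% and 0.0857% of genes. A p that misses the threshold does not show equal levels. Trarg1 differed by 0.29 ± 0.21 from Dlk1+Sca1+ and by 1.36 ± 0.21 from CD26+ (adjusted p = 0.708 and 0.0326), and Akr1c18 by -0.80 ± 0.25 and 2.92 ± 0.25 (adjusted p = 0.193 and 0.000584). Adipoq, not called against the reticular cells, was higher than in CD26+ (1.05 ± 0.17, adjusted p = 0.0357).

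Promoter windows are shown for the called genes Cd36, Plin1 and Pparg, to show the sequence at the start sites of 3 genes of adipogenesis that rose. They come from RefSeq on GRCm38.p6, the build also called mm10, and run from 250 bases before an annotated start to 50 after it. Letters in capitals are matches to AGGTCA, the repeat unit of PPAR elements, or to TTGCNNAA, bound by C/EBP factors, on either strand. The TATA box TATAAA and the motif CTTTGA of LEF and TCF factors were also searched, and no matches overlapped. The Pparg window is the most downstream of the gene's 3.
Cd36, chr5:17835847-17836146, minus strand: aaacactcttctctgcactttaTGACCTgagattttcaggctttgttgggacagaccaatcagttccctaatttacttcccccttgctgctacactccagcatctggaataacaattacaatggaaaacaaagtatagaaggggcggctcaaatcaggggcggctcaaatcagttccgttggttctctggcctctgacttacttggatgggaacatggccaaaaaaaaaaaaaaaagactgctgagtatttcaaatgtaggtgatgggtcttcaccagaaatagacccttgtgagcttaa
Plin1, chr7:79732727-79733026, minus strand: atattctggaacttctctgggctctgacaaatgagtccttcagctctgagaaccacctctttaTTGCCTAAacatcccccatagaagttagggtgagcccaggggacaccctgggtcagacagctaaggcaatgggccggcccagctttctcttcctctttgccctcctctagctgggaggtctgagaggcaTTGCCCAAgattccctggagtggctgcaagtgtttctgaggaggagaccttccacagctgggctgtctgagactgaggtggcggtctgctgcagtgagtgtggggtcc
Pparg, chr6:115421816-115422115, plus strand: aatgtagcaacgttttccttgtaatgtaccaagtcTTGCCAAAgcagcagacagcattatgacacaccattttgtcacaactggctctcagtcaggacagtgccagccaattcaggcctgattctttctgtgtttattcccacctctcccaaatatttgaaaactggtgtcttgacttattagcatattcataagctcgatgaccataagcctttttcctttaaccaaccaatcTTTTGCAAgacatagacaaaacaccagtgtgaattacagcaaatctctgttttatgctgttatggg
Plin1 and the downstream Pparg window each held the C/EBP motif at 2 places, and Cd36 held the PPAR unit once. Over the 8 windows of the 5 called genes of the adipogenic lists, Cav1, Cd36, Itih5, Plin1 and Pparg, 2 windows held the C/EBP motif, 3 the PPAR unit, 2 the TATA box and 0 the LEF and TCF motif. Of 32851 windows of the same length, 10.8% held the first, 16.3% the PPAR unit, 13.6% the TATA box and 16% the last. A match says only that the letters are there.

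Surface antigens of adipocyte precursors changed in both directions. Dpp4 (chromosome 2, 62330073 to 62412315), which encodes CD26, the gate of the CD26+ population, and marks interstitial progenitors of fat, was at 9.97 and 10.13 in Dlk1-Sca1+ and at 7.92, 8.30 and 9.20 in Dlk1+Sca1-. The populations did not overlap, but Dlk1+Sca1- replicate 3 was well above its 2 partners and close to Dlk1-Sca1+ replicate 3 at 9.37. Dpp4 rose by 1.58 ± 0.29 (adjusted p = 0.0355) and was not called without Dlk1-Sca1+ replicate 1 (adjusted p = 0.15) or 2 (0.24), without Dlk1+Sca1- replicate 1 (0.0717) or 2 (0.079), with all 12 arrays (0.0619) or after quantile normalisation (0.079). Cd24a, a surface antigen of early adipocyte precursors, was at 10.48 and 11.01 against 12.28, 12.24 and 11.91, with 9.85 on replicate 3. Every Dlk1-Sca1+ array was below every reticular array, and Cd24a fell (-1.40 ± 0.26, adjusted p = 0.0365). It was not called without Dlk1-Sca1+ replicate 1 (adjusted p = 0.203) or 2 (0.093), without Dlk1+Sca1- replicate 1 (0.115) or 2 (0.0824) or with neither trend nor robust fitting (0.0523).

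Thy1, the fibroblast antigen CD90, rose by 0.99 ± 0.12 (adjusted p = 0.00361), from 10.88, 10.86 and 10.67 to 11.72 and 11.86, and replicate 3 was at 11.83. The Dlk1-Sca1+ arrays were all close together and above the reticular ones, and the call was lost without Dlk1-Sca1+ replicate 2 (adjusted p = 0.0585). Cd34, an antigen of many mesenchymal and vascular progenitors, rose by 0.75 ± 0.14 (adjusted p = 0.0356), and Pdgfra by 0.75 ± 0.15 (adjusted p = 0.0448). For Cd34 the call was lost without Dlk1-Sca1+ replicate 1 (adjusted p = 0.162) or 2 (0.244), without Dlk1+Sca1- replicate 1 (0.0949), with all 12 arrays (0.128), after quantile normalisation (0.0545) or with neither trend nor robust fitting (0.105). For Pdgfra it was lost without Dlk1-Sca1+ replicate 1 (adjusted p = 0.166) or 2 (0.309), without Dlk1+Sca1- replicate 1 (0.131), 2 (0.0652) or 3 (0.0609), with all 12 arrays (0.248), after quantile normalisation (0.121) or with neither trend nor robust fitting (0.0919). Of 23 precursor surface antigens, 4 rose and 1 fell (median 0.16), against 1 and 1 with all 12 arrays, after quantile normalisation or in a fit of only the 5 arrays compared, and 2 and 0 without trend or robust fitting. Entpd1, which encodes CD39, was at 8.04 and 8.19 against 7.37, 7.19 and 6.44 and was not called (1.12 ± 0.24, adjusted p = 0.0571), while replicate 3 was at 6.45.

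Pi16 (chromosome 17, 29318796 to 29328903), a peptidase inhibitor gene that marks fascia and adventitia fibroblasts, was at 6.89 and 6.88 in Dlk1-Sca1+ and at 5.32, 5.79 and 5.21 in Dlk1+Sca1-. The 2 arrays were nearly equal and above all reticular arrays, and replicate 3 was far higher at 8.45. Pi16 rose by 1.45 ± 0.24 (adjusted p = 0.0175) and was not called without Dlk1-Sca1+ replicate 1 (adjusted p = 0.114) or 2 (0.148) or without Dlk1+Sca1- replicate 1 (0.0672). Against Dlk1+Sca1+, at 7.43, 7.94 and 7.84, it differed by -0.84 ± 0.24 (adjusted p = 0.14), and against CD26+ by 1.62 ± 0.24 (adjusted p = 0.0264). Of 39 fascia and adventitia genes, 4 rose, Dpp4, Pi16, Stmn4 and Opcml, and 1 fell, Bmp7 (median 0.17, and 0.54 on replicate 3). The counts were 0 and 0 in a fit of only the 5 arrays compared and without either Dlk1-Sca1+ array, and 1 and 1 after quantile normalisation. Stmn4, a microtubule regulator, rose by 1.15 ± 0.21 (adjusted p = 0.0322), and Opcml, an adhesion molecule anchored by lipid, by 1.03 ± 0.21 (adjusted p = 0.0447). Calls were lost for Stmn4 (adjusted p = 0.204) and Opcml (0.187) on leaving out Dlk1-Sca1+ replicate 1, for Stmn4 (0.0849) and Opcml (0.225) on leaving out Dlk1-Sca1+ replicate 2, for Opcml (0.0702) on leaving out Dlk1+Sca1- replicate 1, for Stmn4 (0.0591) and Opcml (0.0959) on leaving out Dlk1+Sca1- replicate 2, for Opcml (0.0558) on leaving out Dlk1+Sca1- replicate 3, for Opcml (0.138) with all 12 arrays, for Stmn4 (0.0657) and Opcml (0.0514) after quantile normalisation and for Stmn4 (0.111) with the mean of a gene's probe sets. Cd55, Anxa3 and Sema3c differed by 0.37 ± 0.34, 1.00 ± 0.34 and 0.08 ± 0.21 and were not called (adjusted p = 0.707, 0.23 and 0.919).

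Restrainers of adipogenesis held 1 call beside the gate Dlk1. Of 25 others measured 1 rose and 0 fell, 14 were below 0 (56%, against 51.3% of all genes), and the median was -0.32, and -0.02 on replicate 3. Pth1r, the receptor for parathyroid hormone, rose by 1.05 ± 0.15 (adjusted p = 0.00661), from 8.02, 7.77 and 7.73 to 8.85 and 8.94, with 8.43 on replicate 3. The arrays did not overlap, and the call was lost without Dlk1-Sca1+ replicate 1 (adjusted p = 0.0512) or 2 (0.093). Inhba, the activin subunit gene, and Zfp521, which opposes adipogenic commitment, differed by -2.12 ± 0.54 and -1.14 ± 0.26 and were not called (adjusted p = 0.133 and 0.0799).

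**Figure D3:**
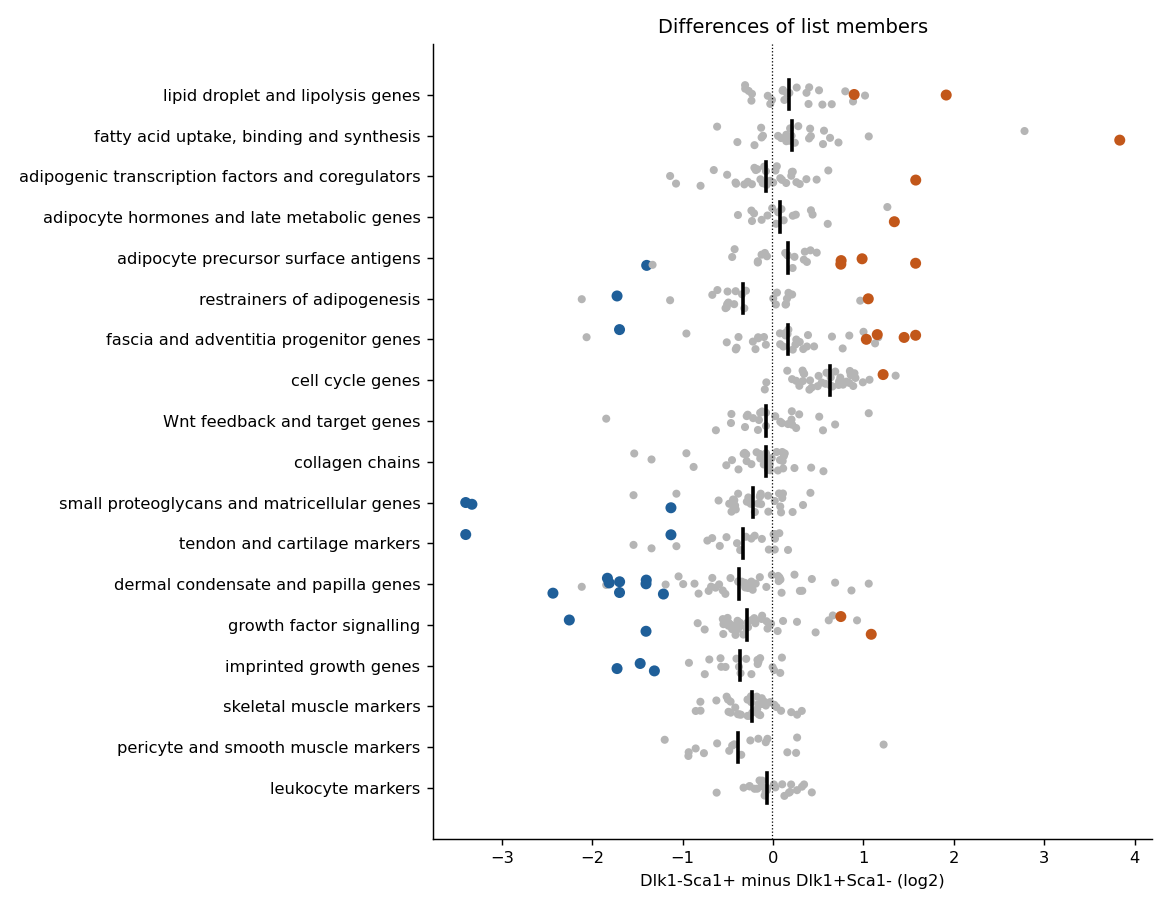
Difference between Dlk1-Sca1+ and Dlk1+Sca1- (x axis, log2) for the measured members of 18 gene lists (y axis), 1 point per gene, with the list median as a black bar and the median of all genes as a dotted line. Called genes are coloured, and the list medians run from -0.39 for pericyte and smooth muscle markers to 0.64 for cell cycle genes.

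Several rises were in genes that CD26+ cells held at least as high and Dlk1+Sca1+ cells lower. Sytl2 (chromosome 7, 90302211 to 90410719), whose product binds Rab27 on vesicles, was at 7.89 and 8.07 in Dlk1-Sca1+, 6.46, 5.47 and 6.26 in Dlk1+Sca1-, 6.26, 5.96 and 5.90 in Dlk1+Sca1+ and 8.74, 8.45 and 8.62 in CD26+. Replicates 1 and 2 lay above both Dlk1+ populations and below CD26+, and replicate 3, at 7.03, was lower than they were but above both Dlk1+ populations. Sytl2 rose by 1.92 ± 0.26 over the reticular cells (adjusted p = 0.00543) and by 1.94 ± 0.26 over Dlk1+Sca1+ (adjusted p = 0.0026), and differed from CD26+ by -0.62 ± 0.26 (adjusted p = 0.867). The call was lost without Dlk1-Sca1+ replicate 2 (adjusted p = 0.0747).

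Lrig1 (chromosome 6, 94604529 to 94700298), an inhibitor of epidermal growth factor receptors that marks upper dermis progenitors, was at 9.96 and 9.90 against 8.30, 8.73 and 8.30 in the reticular cells, and at 8.30, 8.76 and 8.12 in Dlk1+Sca1+ and 10.15, 10.13 and 9.92 in CD26+. The Dlk1-Sca1+ arrays stood with the CD26+ arrays and apart from both Dlk1+ populations, with replicate 3 between at 9.19. The rise was 1.49 ± 0.19 (adjusted p = 0.0041), the difference from Dlk1+Sca1+ 1.53 ± 0.19 (adjusted p = 0.00174) and that from CD26+ -0.14 ± 0.19 (adjusted p = 0.998). Lrig1 was not called without Dlk1-Sca1+ replicate 1 (adjusted p = 0.052) or 2 (0.0527). Of 20 upper dermis genes, 2 rose, Lrig1 and Dpp4, and the median was 0.29, but -0.23 on replicate 3.

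Cntn4, a neural adhesion molecule, was at 6.68 and 6.81 against 5.28, 4.83 and 5.70, and rose by 1.48 ± 0.25 (adjusted p = 0.0186). Replicate 3, at 5.51, fell inside the reticular range, and CD26+ was higher at 7.39, 6.92 and 7.47. Chodl, a lectin-domain membrane protein that the study names, was at 7.77 and 7.68 against 6.03, 6.48 and 6.54 and rose by 1.37 ± 0.20 (adjusted p = 0.0106), with 8.86, 8.66 and 8.65 in CD26+. The populations did not overlap, and replicate 3 was only just above the reticular arrays at 6.71. Dscam and Efna5, a neural adhesion molecule and an ephrin ligand, rose by 1.36 ± 0.26 (adjusted p = 0.0356) and 1.25 ± 0.25 (adjusted p = 0.0447). All 4 were higher than in Dlk1+Sca1+ too, by 1.96 ± 0.25 (adjusted p = 0.00174), 2.08 ± 0.20 (adjusted p = 0.000279), 1.50 ± 0.26 (adjusted p = 0.0136) and 1.79 ± 0.25 (adjusted p = 0.00361), in this order. Calls against the reticular cells ended for Cntn4 (adjusted p = 0.0957), Chodl (0.094) and Efna5 (0.116) on leaving out Dlk1-Sca1+ replicate 1, for Cntn4 (0.178), Chodl (0.084), Dscam (0.295) and Efna5 (0.344) on leaving out Dlk1-Sca1+ replicate 2, for Cntn4 (0.062), Dscam (0.0949) and Efna5 (0.0665) on leaving out Dlk1+Sca1- replicate 1, for Dscam (0.079) and Efna5 (0.0959) on leaving out Dlk1+Sca1- replicate 2, for Efna5 (0.0695) on leaving out Dlk1+Sca1- replicate 3, for Cntn4 (0.175), Chodl (0.113), Dscam (0.192) and Efna5 (0.432) with all 12 arrays, for Efna5 (0.0833) after quantile normalisation, for Efna5 (0.0711) with neither trend nor robust fitting and for Efna5 (0.0587) with array weights.

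Cell cycle genes lay mostly above 0, with 1 call. Of 39 measured, 37 lay above 0, 27 passed an unadjusted p under 0.05 and 1, Bub1, was called. Of all 22180 genes, 2740 passed an unadjusted p under 0.05. The list median was 0.64, against -0.01 for all genes, and 0.02 on replicate 3. Against the same reticular arrays it was 0.51 in CD26+ and -0.12 in Dlk1+Sca1+. Bub1, a kinase of the spindle checkpoint, was at 7.89 and 7.70 in Dlk1-Sca1+ and at 6.56, 6.73 and 6.44 in Dlk1+Sca1-, with 6.65 on replicate 3. Replicates 1 and 2 were about a unit above the reticular arrays, and replicate 3 was within their range. Bub1 rose by 1.22 ± 0.18 (adjusted p = 0.00974) and was not called without Dlk1-Sca1+ replicate 1 (adjusted p = 0.0944) or 2 (0.0585) or with all 12 arrays (0.21).

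Shcbp1 (chromosome 8, 4735976 to 4779567), a gene of dividing cells, was at 7.82 and 7.58 against 5.69, 6.22 and 5.52, and rose by 1.89 ± 0.33 (adjusted p = 0.0259). Replicate 3 was lower than its partners at 6.36, though above the reticular arrays, and the call was lost without Dlk1-Sca1+ replicate 1 (adjusted p = 0.166) or 2 (0.155), without Dlk1+Sca1- replicate 1 (0.0873) or 3 (0.0511) or with all 12 arrays (0.143). The histone gene H2ac15 rose by 1.62 ± 0.30 (adjusted p = 0.0365), from 8.64, 9.80 and 8.64 to 10.71 and 10.59, with 9.76 on replicate 3. Dlk1+Sca1- replicate 2 was over 1 unit above the other reticular arrays, near-identical histone copies make the gene behind this signal uncertain, and the call was lost without Dlk1-Sca1+ replicate 1 (adjusted p = 0.183) or 2 (0.205), without Dlk1+Sca1- replicate 1 (0.107) or 3 (0.0756), with all 12 arrays (0.109) or after quantile normalisation (0.0568). Mki67 and Top2a, markers of dividing cells, differed by 0.66 ± 0.16 and 0.84 ± 0.20 and were not called (adjusted p = 0.103 and 0.102).

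The 2 largest falls were in genes of matrix proteins found in tendon and cartilage. Thbs4 (chromosome 13, 92751586 to 92794818), a thrombospondin of tendon and muscle matrix, was at 5.85 and 5.91 in Dlk1-Sca1+ and at 9.40, 10.15 and 8.30 in Dlk1+Sca1-. All reticular arrays were more than 2 units above, and replicate 3, at 5.68, was the lowest of all. Thbs4 fell (-3.40 ± 0.42, adjusted p = 0.0041) and was 10.6-fold higher in reticular cells. It was at 6.88, 6.63 and 7.17 in Dlk1+Sca1+ and 7.02, 7.48 and 6.63 in CD26+, above Dlk1-Sca1+ by amounts that were not called (-1.01 ± 0.42, adjusted p = 0.391, and -1.16 ± 0.42, adjusted p = 0.781). The call was lost without Dlk1-Sca1+ replicate 1 (adjusted p = 0.0505) or 2 (0.0527).

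Cilp (chromosome 9, 65265180 to 65280614), which encodes a cartilage matrix protein that binds TGF-beta, was at 4.59 and 4.48 against 7.67, 8.74 and 7.20, with 4.27 on replicate 3. The groups were far apart, and replicate 3 was again the lowest array. Cilp fell (-3.33 ± 0.39, adjusted p = 0.00276), was 10.1-fold higher in reticular cells, and was called in each of the 5 fits that left out an array. It was also lower than in Dlk1+Sca1+ (-2.05 ± 0.39, adjusted p = 0.0236), where it was at 6.55, 6.58 and 6.62. Of 34 small proteoglycan and matricellular genes, 3 fell, Thbs4, Cilp and Kera, 0 rose, 25 were below 0 and the median was -0.22. Of 22 tendon and cartilage markers, 2 fell, Thbs4 and Kera (median -0.33, and 0.01 on replicate 3). Kera, the proteoglycan keratocan, fell by 1.13 ± 0.18 (adjusted p = 0.015), a call that was lost without Dlk1-Sca1+ replicate 1 (adjusted p = 0.0832) or 2 (0.153) or without Dlk1+Sca1- replicate 1 (0.0599). The summed linear level of 37 skeletal muscle markers moved the same way, from 1849 to 1965 on the reticular arrays to 1526 and 1621 on the Dlk1-Sca1+ arrays, with 1621 on replicate 3. Its part in these falls was not tested.

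Mgp (chromosome 6, 136872435 to 136875823), an inhibitor of calcification, was at 6.32 and 6.83 against 8.39, 9.47 and 8.62 and fell (-2.25 ± 0.35, adjusted p = 0.0148). All Dlk1-Sca1+ arrays, replicate 3 at 6.91 included, were below all reticular arrays, and the call was lost without Dlk1-Sca1+ replicate 1 (adjusted p = 0.131) or 2 (0.0618). Angptl1, a secreted angiopoietin-like protein, was at 5.94 and 6.43 against 8.17, 8.71 and 8.02, with 7.16 on replicate 3, and Itgbl1, a secreted integrin-like protein, at 7.04 and 6.21 against 8.48, 8.80 and 8.10, with 6.81. Neither gene overlapped between the populations. Angptl1 fell (-2.12 ± 0.29, adjusted p = 0.00604), as did Itgbl1 (-1.84 ± 0.26, adjusted p = 0.00678). Both were also lower than in Dlk1+Sca1+ (-2.16 ± 0.29, adjusted p = 0.00276, and -1.36 ± 0.26, adjusted p = 0.0225). Calls against the reticular cells ended for Angptl1 (adjusted p = 0.0799) on leaving out Dlk1-Sca1+ replicate 1 and for Itgbl1 (0.0933) on leaving out Dlk1-Sca1+ replicate 2.

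The other matrix lists held 0 to 2 calls each. Of all 22180 genes, limma called 0.591%, with 0.248% lower, and 2740 passed an unadjusted p under 0.05. Of 33 collagen chains, 0 were called by limma and 8 passed an unadjusted p under 0.05 (median -0.08), and the major chains Col1a1, Col1a2 and Col3a1 differed by 0.04 ± 0.09, -0.08 ± 0.09 and 0.12 ± 0.11 (adjusted p = 0.902, 0.773 and 0.721). Of 28 basement membrane genes, 2 fell, Smoc1 (-1.57 ± 0.27, adjusted p = 0.0238) and Frem1 (-1.21 ± 0.22, adjusted p = 0.0322), and the median was -0.18. Of 21 elastic fibre genes, 1 fell, Ltbp1, which tethers latent TGF-beta (-1.29 ± 0.18, adjusted p = 0.00604). Of 38 matrix proteases and inhibitors, 2 fell: Adamts20, a protease that cleaves versican (-1.90 ± 0.30, adjusted p = 0.0148), and Fap, a protease of activated fibroblasts (-1.24 ± 0.25, adjusted p = 0.0474). Calls ended for Smoc1 (adjusted p = 0.132), Frem1 (0.183), Ltbp1 (0.067), Adamts20 (0.0939) and Fap (0.137) on leaving out Dlk1-Sca1+ replicate 1, for Smoc1 (0.191), Frem1 (0.163), Ltbp1 (0.0527), Adamts20 (0.148) and Fap (0.338) on leaving out Dlk1-Sca1+ replicate 2, for Smoc1 (0.0866), Frem1 (0.0949), Adamts20 (0.0576) and Fap (0.127) on leaving out Dlk1+Sca1- replicate 1, for Smoc1 (0.061), Frem1 (0.0747) and Fap (0.0857) on leaving out Dlk1+Sca1- replicate 2, for Fap (0.124) with all 12 arrays, for Fap (0.0575) after median centring and for Fap (0.0677) with neither trend nor robust fitting.

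Genes of the dermal condensate and papilla, the mesenchyme of hair follicles, made up the list with the most falls. Of 49 measured, 8 fell and 0 rose, 37 lay below 0 and the median was -0.38. Against the same reticular arrays, the list median was -0.62 in Dlk1+Sca1+ and -0.28 in CD26+, so low levels were not particular to Dlk1-Sca1+. Of the 49, 33 were lowest on Dlk1+Sca1- replicate 3 among the reticular arrays. The same array was lowest for 26 of 40 growth factor signalling genes and for 14 of 52 mesenchymal patterning factors. The share over all genes is not given here, so the 33 were not shown to be particular to this list. The summed linear level of 18 pericyte and smooth muscle markers was 2381 and 2631 in Dlk1-Sca1+, 4135 on replicate 3 and 2588 to 4020 in Dlk1+Sca1-, and its part in these falls was not tested. Leaving out Dlk1+Sca1- replicate 3 gave 12 falls at a median of -0.48. Leaving out Dlk1+Sca1- replicate 1 gave 1, and leaving out Dlk1-Sca1+ replicate 1 or 2 gave 1 and 0.

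Prex2 (chromosome 1, 10993273 to 11303683), an exchange factor for Rac, was at 6.25 and 6.77 in Dlk1-Sca1+ and at 9.35, 9.41 and 8.08 in Dlk1+Sca1-, with 6.47 on replicate 3. The lowest reticular array, replicate 3, was still more than 1 unit above. Prex2 fell (-2.44 ± 0.38, adjusted p = 0.015), was 5.41-fold higher in reticular cells and was not called without Dlk1-Sca1+ replicate 1 (adjusted p = 0.133) or 2 (0.0747) or without Dlk1+Sca1- replicate 1 (0.0579). Alpl, the alkaline phosphatase used to stain papillae, was at 6.18 and 5.95 against 8.10, 8.25 and 7.29, with 6.12 on replicate 3. It fell (-1.81 ± 0.27, adjusted p = 0.0114), with no overlap, and was not called without Dlk1-Sca1+ replicate 1 (adjusted p = 0.0668) or 2 (0.133).

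Bmp3, a member of the BMP family that opposes other BMPs, was at 6.62 and 6.34 against 8.38, 8.89 and 7.66, with 7.12 on replicate 3, and fell (-1.83 ± 0.31, adjusted p = 0.0216). Bmp7, a ligand of the same family, was at 6.62 and 6.72 against 8.78, 8.60 and 7.72, with 6.70 on replicate 3, and fell (-1.70 ± 0.33, adjusted p = 0.0397). In both genes Dlk1+Sca1- replicate 3 was the lowest reticular array and the groups did not overlap. Fgf7, a growth factor for keratinocytes, fell (-1.41 ± 0.23, adjusted p = 0.0175), as did Igfbp3, which binds insulin-like growth factors (-1.70 ± 0.26, adjusted p = 0.013), and Itga8, the receptor chain for nephronectin (-1.40 ± 0.29, adjusted p = 0.0486). Calls were lost for Bmp3 (adjusted p = 0.0957), Bmp7 (0.183), Igfbp3 (0.105) and Itga8 (0.181) on leaving out Dlk1-Sca1+ replicate 1, for Bmp3 (0.201), Bmp7 (0.223), Fgf7 (0.194), Igfbp3 (0.0977) and Itga8 (0.273) on leaving out Dlk1-Sca1+ replicate 2, for Bmp3 (0.0748), Bmp7 (0.127), Fgf7 (0.0665), Igfbp3 (0.0517) and Itga8 (0.152) on leaving out Dlk1+Sca1- replicate 1, for Bmp7 (0.0888) and Itga8 (0.102) on leaving out Dlk1+Sca1- replicate 2, for Fgf7 (0.0523) and Igfbp3 (0.0636) with all 12 arrays, for Itga8 (0.0547) after median centring and for Bmp7 (0.0513) and Itga8 (0.0613) with neither trend nor robust fitting. Sox2, a factor of papilla cells, was at 3.34 and 3.34 against 5.42, 4.74 and 3.44, and Corin, a papilla protease, at 5.77 and 6.08 against 7.18, 7.10 and 6.48. For both, Dlk1+Sca1- replicate 3 was the lowest of its group. Neither was called (-1.19 ± 0.45, adjusted p = 0.306, and -0.99 ± 0.24, adjusted p = 0.095), but without Dlk1+Sca1- replicate 3 both were (adjusted p = 0.0194 and 0.0242).

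**Figure D4:**
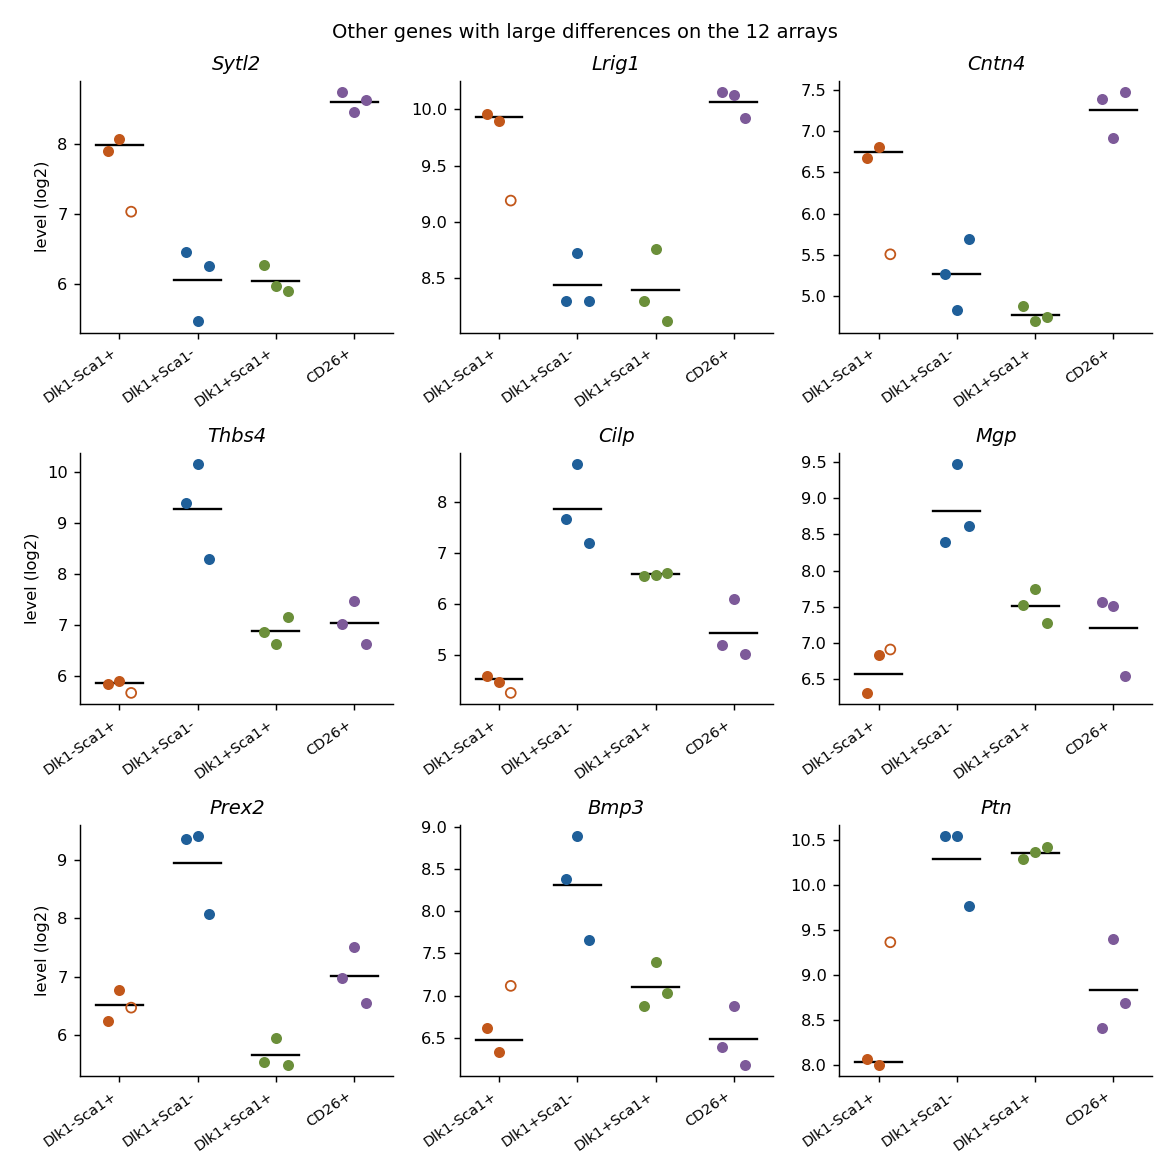
Log2 level (y axis) of 9 genes on the 12 arrays by population (x axis), 1 point per array, with the population mean as a bar and Dlk1-Sca1+ replicate 3 as an open circle outside its mean. Sytl2, Lrig1 and Cntn4 are high in Dlk1-Sca1+ and CD26+, while Thbs4, Cilp, Mgp, Prex2 and Bmp3 are highest in Dlk1+Sca1- and Ptn is high in both Dlk1+ populations.

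Growth factor genes were called in both directions. Ptn (chromosome 6, 36714924 to 36810179), a heparin-binding growth factor, was at 8.06 and 8.0 in Dlk1-Sca1+ and at 10.54, 10.54 and 9.76 in Dlk1+Sca1-. Replicate 3, at 9.36, lay between, close to the lowest reticular array. Ptn fell (-2.25 ± 0.27, adjusted p = 0.00361), was 4.77-fold higher in reticular cells and was also lower than in Dlk1+Sca1+ (-2.33 ± 0.27, adjusted p = 0.0013), where it was at 10.29, 10.36 and 10.42. The call was lost without Dlk1-Sca1+ replicate 2 (adjusted p = 0.0527) or with all 12 arrays (0.0517). Of 40 growth factor signalling genes, 2 rose, Fgfr2 and Pdgfra, and 2 fell, Ptn and Fgf7, with 31 below 0 (median -0.29). The counts were 0 and 1 in a fit of only the 5 arrays compared, 1 and 0 with all 12 arrays, and 1 and 2 after quantile normalisation or without trend or robust fitting. Fgfr2, a receptor for fibroblast growth factors, rose by 1.09 ± 0.13 (adjusted p = 0.00276), from 8.50, 8.62 and 8.59 to 9.54 and 9.77, with 9.54 on replicate 3. All 3 Dlk1-Sca1+ arrays stood clearly above the reticular arrays, and the call was lost without Dlk1-Sca1+ replicate 2 (adjusted p = 0.0527).

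Bmper, a secreted regulator of BMPs, rose by 1.21 ± 0.22 (adjusted p = 0.0289), from 6.26, 6.32 and 6.09 to 7.58 and 7.29, with 7.80 on replicate 3. It was higher than in CD26+ (2.12 ± 0.22, adjusted p = 0.00253), and no Dlk1-Sca1+ array overlapped either population. Of 39 TGF-beta, BMP and contractile genes, 1 rose, Bmper, and 2 fell, Bmp3 and Bmp7 (median -0.14). In the Igf axis 1 of 19 genes rose, the protease gene Htra1 (1.20 ± 0.19, adjusted p = 0.0133), and 1 fell, Igfbp3. Calls ended for Bmper (adjusted p = 0.183) and Htra1 (0.0944) on leaving out Dlk1-Sca1+ replicate 1, for Bmper (0.126) and Htra1 (0.14) on leaving out Dlk1-Sca1+ replicate 2, for Bmper (0.0775) on leaving out Dlk1+Sca1- replicate 1, for Bmper (0.0513) on leaving out Dlk1+Sca1- replicate 2, for Bmper (0.0517) on leaving out Dlk1+Sca1- replicate 3, for Htra1 (0.14) with all 12 arrays and for Bmper (0.0533) after quantile normalisation.

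Imprinted growth genes, expressed from 1 parental copy and high in fetal tissue, lay mostly below 0. Of 21 measured beside the gate Dlk1, 2 fell, Mest and Ppp1r9a, 0 rose and 18 were below 0 (median -0.36, and -0.18 on replicate 3). Of all genes, 51.3% were below 0 and 0.248% were called lower. Against the same reticular arrays, the list median with Dlk1 included was -0.32 in CD26+ and 0.20 in Dlk1+Sca1+. Low levels were thus not particular to Dlk1-Sca1+. Mest, which is linked to fat expansion in mice, was at 8.58 and 8.77 against 10.01, 10.60 and 9.82, with 9.35 on replicate 3. Replicates 1 and 2 were more than 1 unit below the reticular arrays, and replicate 3 was between. Mest fell (-1.47 ± 0.25, adjusted p = 0.019) and was lower than in Dlk1+Sca1+ (-1.50 ± 0.25, adjusted p = 0.0105). Ppp1r9a, which binds actin, fell too (-1.31 ± 0.24, adjusted p = 0.0293). These calls ended for Mest (adjusted p = 0.15) on leaving out Dlk1-Sca1+ replicate 1, for Mest (0.128) and Ppp1r9a (0.27) on leaving out Dlk1-Sca1+ replicate 2, for Mest (0.0517) and Ppp1r9a (0.0781) on leaving out Dlk1+Sca1- replicate 1 and for Ppp1r9a (0.0671) on leaving out Dlk1+Sca1- replicate 2. Igf2, a fetal growth factor, was at 9.49 and 9.65 against 10.12, 10.60 and 10.10 and was not called (-0.71 ± 0.16, adjusted p = 0.0757), and Meg3, the noncoding neighbour of Dlk1, differed by -0.53 ± 0.14 (adjusted p = 0.139). Without Dlk1+Sca1- replicate 3 both were called (adjusted p = 0.0457 and 0.0159).

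Other falls were in genes of varied function. Tfap2c, a transcription factor of the AP-2 family, was at 3.73 and 4.25 against 6.79, 7.09 and 5.42, with 4.25 on replicate 3, and was the only called gene of 52 mesenchymal patterning factors. Dlk1+Sca1- replicate 3 was the lowest of its group but above all Dlk1-Sca1+ arrays, and Tfap2c fell (-2.44 ± 0.40, adjusted p = 0.0191). Prom1, the stem cell antigen CD133 that papilla cells also carry, was at 4.84 and 4.41 against 6.60, 7.21 and 5.92 and fell (-1.96 ± 0.36, adjusted p = 0.0322), with 5.70 on replicate 3, close to the lowest reticular array. Snhg14, a noncoding host of repeated small nucleolar RNAs whose probes may not be unique, was at 3.55 and 3.51 against 4.65, 5.90 and 5.72 and fell (-1.89 ± 0.31, adjusted p = 0.0187), while replicate 3 was inside the reticular range at 5.28. The calls ended for Tfap2c (adjusted p = 0.158), Prom1 (0.109) and Snhg14 (0.114) on leaving out Dlk1-Sca1+ replicate 1, for Tfap2c (0.0977), Prom1 (0.256) and Snhg14 (0.164) on leaving out Dlk1-Sca1+ replicate 2, for Tfap2c (0.0708) and Prom1 (0.0949) on leaving out Dlk1+Sca1- replicate 1, for Prom1 (0.0575) on leaving out Dlk1+Sca1- replicate 2 and for Prom1 (0.0976) and Snhg14 (0.263) with all 12 arrays.

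Of 64 adhesion and axon guidance genes, 2 rose, Dscam and Efna5, and 4 fell, Cdh2, Epha3, Unc5b and Itga8 (median 0.03). Cdh2, N-cadherin, fell (-1.46 ± 0.25, adjusted p = 0.0216), as did the ephrin receptor Epha3 (-1.31 ± 0.24, adjusted p = 0.0326) and the netrin receptor Unc5b (-0.94 ± 0.19, adjusted p = 0.0442). Epha3 was at 6.65 and 6.44 against 8.14, 8.08 and 7.32. Replicate 3, at 8.11, was inside the reticular range, unlike its partners. Rarres1, which retinoids induce, was the only called gene of 24 retinoid genes and fell (-1.45 ± 0.26, adjusted p = 0.0289). Of 28 immediate early and stress genes, which tissue dissociation can induce, 1 fell, the heat shock gene Hspa1b, whose near-identical copy Hspa1a makes the source uncertain (-0.50 ± 0.09, adjusted p = 0.0247, median of the list -0.01). Calls were lost for Cdh2 (adjusted p = 0.152), Epha3 (0.124), Unc5b (0.216), Rarres1 (0.181) and Hspa1b (0.144) on leaving out Dlk1-Sca1+ replicate 1, for Cdh2 (0.145), Epha3 (0.244), Unc5b (0.164), Rarres1 (0.148) and Hspa1b (0.21) on leaving out Dlk1-Sca1+ replicate 2, for Epha3 (0.103), Unc5b (0.126), Rarres1 (0.0847) and Hspa1b (0.0535) on leaving out Dlk1+Sca1- replicate 1, for Epha3 (0.0773), Unc5b (0.0959), Rarres1 (0.0664) and Hspa1b (0.0548) on leaving out Dlk1+Sca1- replicate 2, for Epha3 (0.421) and Hspa1b (0.0727) with all 12 arrays, for Unc5b (0.0562) after median centring and for Hspa1b (0.181) with neither trend nor robust fitting.

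The 3 lists of Wnt pathway genes held no calls, although Wls, a carrier of Wnt proteins that is on none of them, was called, with values below. Limma called 0 of 27 feedback and target genes, 0 of 19 ligands and 0 of 31 receptors and secreted modulators, and 4, 1 and 8 passed an unadjusted p under 0.05. Of all 22180 genes limma called 0.591%, and 2740 passed an unadjusted p under 0.05. At that share, 0 calls say little about lists of this size. The medians were -0.08, -0.05 and -0.01. Axin2, induced by canonical Wnt signals, was at 7.98 and 8.21 in Dlk1-Sca1+ and at 8.10, 7.65 and 7.67 in Dlk1+Sca1-, and Lef1, a transcription factor of the pathway, at 7.88 and 7.69 against 8.44, 8.29 and 7.47. For Axin2 the groups overlapped, and for Lef1 both lay inside the spread of the reticular arrays. Neither was called (0.29 ± 0.22, adjusted p = 0.642, and -0.28 ± 0.30, adjusted p = 0.763). Tcf4, named by the study, differed by 0.53 ± 0.16 (adjusted p = 0.169). Among genes of these lists named after their values were seen were Sfrp4, a secreted Wnt inhibitor (-2.06 ± 0.44, adjusted p = 0.0764), and Prdm1, a repressor that marks papillary progenitors (-1.85 ± 0.42, adjusted p = 0.0877), which were not called.

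Of 40 chemokines, cytokines and receptors, 1 fell, the cytokine receptor Lifr (-0.92 ± 0.18, adjusted p = 0.0394), and 0 rose (median -0.20). Its call was lost without Dlk1-Sca1+ replicate 1 (adjusted p = 0.131) or 2 (0.279), without Dlk1+Sca1- replicate 1 (0.0949) or 2 (0.0857), with all 12 arrays (0.117) or with neither trend nor robust fitting (0.0509). Cxcl12, which binds CXCR4, was at 10.03 and 9.96 against 9.33, 9.59 and 9.52 and was not called against the reticular cells (0.52 ± 0.16, adjusted p = 0.194) although the groups did not overlap. It was higher than in CD26+ (1.49 ± 0.16, adjusted p = 0.00253). Cxcl1, Il6, Akap12 and Nrk, also named by the study, differed by 0.93 ± 0.54, 0.03 ± 0.29, -0.26 ± 0.27 and -1.15 ± 0.33 and were not called (adjusted p = 0.53, 0.981, 0.759 and 0.17). Of 20 complement genes limma called 0, and 2 passed an unadjusted p under 0.05 (median -0.11). Of 22 prostaglandin and steroid genes, 1 rose, Akr1c18 (median -0.09).

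Beside the tendon and cartilage list, limma called 1 marker of other cell types, Chodl, on the list of satellite cells and myoblasts (20 measured, median -0.07). Of the 37 skeletal muscle markers 31 were below 0 (median -0.23), and 7 passed an unadjusted p under 0.05. Acta1, the actin of skeletal muscle, was at 5.69 and 6.30 in Dlk1-Sca1+ and at 6.21, 6.72 and 6.31 in Dlk1+Sca1-, so that the groups overlapped. Of the 18 pericyte and smooth muscle markers, 6 passed an unadjusted p under 0.05 and 14 were below 0 (median -0.39). Acta2, the smooth muscle actin of contractile cells, was at 9.25 and 8.82 against 10.57, 10.55 and 8.78, and at 10.25 on replicate 3. It was low on Dlk1+Sca1- replicate 3 and was called without that array (adjusted p = 0.00802). The summed levels of 20 endothelial markers were 1069 and 1079 against 1014 to 1324, with 9 markers above 0 and 11 below. Pecam1, which defines them, was at 5.41 and 5.63 against 5.37, 5.37 and 5.27. Cdh5, Kdr and Tek, also endothelial, differed by -1.17, -0.83 and 0.87 and were not called. The summed levels of 24 leukocyte markers were 951 and 957 against 841 to 987. The leukocyte gene Ptprc was at 3.13 and 3.16 against 3.20, 3.07 and 3.15. Both sums overlapped between the populations, and 5 and 0 of these markers passed an unadjusted p under 0.05. Limma called 0 of 10 mast cell, 17 keratinocyte, 15 Schwann cell and melanocyte and 5 red blood cell markers, of which 0, 1, 1 and 0 passed an unadjusted p under 0.05.

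Replicate 3 of Dlk1-Sca1+ followed the other 2 arrays in some gene groups and not in others. Of the 131 called genes, 118 lay on the same side of the Dlk1+Sca1- mean on replicate 3, 73 were nearer to replicates 1 and 2 and 58 nearer to the reticular cells. The genes were chosen for their difference from that same mean, so the 118 are no independent support for the calls from replicate 3. Among the 76 higher genes 37 were nearer to its partners, and among the 55 lower genes 36 were. It went beyond replicates 1 and 2 in 24 genes, among them Cd36, Plin1, Pi16 and Akr1c18, and was inside the range of the reticular arrays in 21, among them Cntn4 and Epha3. Entered with its partners in a fit of all 12 arrays, it left 71 of the 131 called. Cd36 then rose by 4.29 ± 0.62 (adjusted p = 0.0108) and Akr1c18 by 2.57 ± 0.30 (adjusted p = 0.00193). Over all genes centred per gene, the mean r of replicate 3 was highest with the Dlk1+Sca1+ arrays, at 0.06, and was -0.24 with CD26+. For replicates 1 and 2 the values with CD26+ were 0.02 and 0.10, above those with either Dlk1+ population. Their mean r with their own population, -0.01 for each, included replicate 3. These means therefore do not show whether replicates 1 and 2 were closer to CD26+ than to each other. The values are a description across genes.

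**Figure D5:**
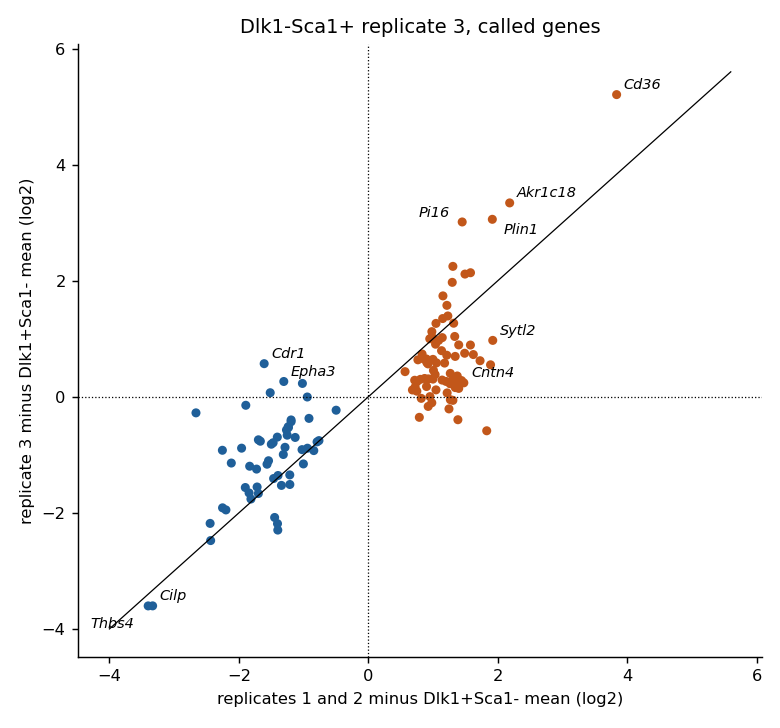
Difference of Dlk1-Sca1+ replicate 3 from the Dlk1+Sca1- mean (y axis, log2) against that of replicates 1 and 2 (x axis, log2) for the 131 called genes, which were chosen on the x axis. The solid line marks equal differences, and 118 of the 131 genes lie on the same side of 0 on both axes. Both axes subtract the same Dlk1+Sca1- mean, so this count is no independent support.

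Beside the gate Dlk1, 8 of the called genes were called in each of the 5 fits that left out 1 of the arrays compared: Akr1c18, Cilp, Wls, Abi3bp, Cdr1, 6330403K07Rik and the microRNA genes Mir215 and Mir669a-3, the last of a family of near-identical copies. Those besides Akr1c18 and Cilp were named after their values were seen. Wls, which carries Wnt proteins to the cell surface, was at 10.23 and 10.33 in Dlk1-Sca1+ and at 9.04, 8.93 and 9.07 in Dlk1+Sca1-, with 9.42 on replicate 3. All Dlk1-Sca1+ arrays were above all reticular arrays, and Wls rose by 1.27 ± 0.13 (adjusted p = 0.00134). Abi3bp, a matrix protein gene, was at 8.29 and 8.44 against 9.94, 9.88 and 9.77 and at 9.05 on replicate 3, and fell without overlap (-1.50 ± 0.13, adjusted p = 0.000431). It was also lower than in Dlk1+Sca1+ (-1.60 ± 0.13, adjusted p = 0.0001) and in CD26+ (-0.80 ± 0.13, adjusted p = 0.0486). Cdr1 fell as well (-1.61 ± 0.18, adjusted p = 0.00244), from 7.05, 7.06 and 6.79 to 5.23 and 5.48, but was at 7.54 on replicate 3, above every reticular array, and with all 12 arrays it was not called (adjusted p = 0.473).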

How the data were processed

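RNA of sorted fibroblasts was hybridised to 12 arrays (Affymetrix Mouse Gene 2.0 ST), 3 for each of 4 populations. The values are on a log2 scale as deposited by the authors. Their summarisation and normalisation are not given in the sources used here. The submitters' processing notes name mm10. The values ran from 1.41 to 14.05 with array medians of 5.38 to 5.51, so no further normalisation was applied, and no pair of arrays was identical (Pearson's r across genes 0.958 to 0.983). No background level is given per probe set, low signals compress log2 differences, and the number of arrays limits the precision.

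Of 41345 probe sets, 23521 carried 1 gene symbol according to GEO's platform annotation, 1820 carried several and 16004 were unnamed here. The probe set with the highest mean was kept for the 1082 genes with several, which left 22180 genes, and 21994 were placed on GRCm38.p6 by Entrez identifier. Groups were taken from the sample titles.

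Limma (version 3.58.1, R 4.3.3, statmod 1.5.0) was fitted to 11 arrays with 1 mean per population (7 residual degrees of freedom), without Dlk1-Sca1+ replicate 3, then eBayes with trend and robust fitting. Tests were two-sided and adjusted by Benjamini-Hochberg over all genes, with calls at an adjusted p under 0.05. "Rose", "fell", "higher" and "lower" refer to Dlk1-Sca1+ and, as results, to called genes. The fit was tested on simulated data. Lists were described by counts and medians without a set test. The members and lists were chosen with earlier results of these data known.

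Genes were named by rule: the 12 largest rises and 12 largest falls that were called without overlap between the populations (leaving aside predicted genes, small RNAs, and sensory and antigen receptors), together with gate markers, genes the study names, called list members and defining markers. Inhba, Zfp521, Mki67, Top2a, Sfrp4, Prdm1, Wls, Abi3bp and Cdr1 were named after their values were seen. Alternatives were all 12 arrays, only the arrays compared, quantile normalisation, median centring, leaving out the 40% dimmest genes, the mean of a gene's probe sets, no trend or robust fitting, array weights, the replicate number as a block and each array left out. Ly6a and Fbn1 were not analysed here.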

Additional observations from a re-analysis of the deposited data

How the results depend on the processing

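The number of called genes, 131, was 26 in a fit of only the 5 arrays compared, and between 20 and 175 when 1 array was left out, where a population with 1 array left is assumed to vary like the others. It was 100 with all 12 arrays and after quantile normalisation, 151 after median centring, 168 of 13308 genes without the 40% dimmest, 130 with the mean of a gene's probe sets, 99 without trend or robust fitting and 146 with array weights. Of 58 named genes called, 2, Akr1c18 and Cilp, were called in all 14 alternatives, 14 in the fit of only the 5 arrays, 11 without Dlk1-Sca1+ replicate 1 and 3 without replicate 2. None of the 58 changed direction in these alternatives, and 7 of 77 named genes not called were called in at least 1. Of 41 list medians, 6 moved by less than the spread between arrays in all alternatives. The causes were not tested.

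The main fit did not pair samples of the same replicate number. Their deviations from the group means correlated at -0.05 to 0.14 over 15 pairs (median 0.05), against -0.14 to 0.09 for other pairs (median -0.03). Of the 11 arrays, 8 correlated best with an array of their own number. Whether the numbers mark samples that belong together was not tested. With the replicate number as a block, 136 genes were called, 61 higher and 75 lower, and 98 of the 131 remained. Among the named genes it ended the calls of Cd36, H2ac15, Pdgfra, Ppp1r9a, Efna5 and Unc5b.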
